A study of Mus musculus with 6 samples.

Results

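Genes of glycolysis, fructose use and aldolase activity were followed in the liver after 2 days of a high fat diet, and Aldoc, Pklr and Khk fell. The set has 8 genes named by symbol: Slc2a2, Gckr, Pfkl, Pfkfb1, Aldoa, Aldoc, Pklr and Khk. A member was measured where a probe set of the array carried its symbol and no other, with the brightest probe set taken by its mean over the 6 arrays. Of the 8 genes, 7 were measured, each by 1 probe set, out of 19938 genes tested in the whole series. Pfkfb1, which makes the liver form of the enzyme that sets the level of fructose 2,6-bisphosphate, was not analysed here. Total RNA of frozen liver tissue was compared between C57BL/6 mice fed ad libitum on a high fat diet (HFD) and mice fed ad libitum on a regular diet (RD), each for 2 days. Each diet had 3 biological replicates with an array each, and C57BL/6, a common inbred laboratory strain, was shared by both groups. The sources used here do not give the composition of the diets, the age or sex of the mice, or the meaning of the letters NI in all 6 sample titles.

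The liver takes up glucose through a high-capacity carrier, traps it as glucose 6-phosphate, and breaks it down by glycolysis to pyruvate. Fructose enters through fructokinase, which bypasses the controlled phosphofructokinase step, and its product is split by an aldolase. In hepatocytes the carbohydrate-responsive factor ChREBP and the insulin-responsive factor SREBP1c are known to drive several of these genes when carbohydrate is plentiful. The 5 measured hepatocyte markers Alb, Ttr, Apoa1, Apob and Cps1 had log2 values of 13.67 to 14.44 over the 6 arrays, where the highest value of the whole table was 14.86, and none of these defining markers of the labelled tissue was absent. The tissue is bulk liver, so fewer cells of a type and less RNA per cell cannot be told apart.

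The sequences before the starts of the 3 genes that fell are shown with their matches to an E-box, a carbohydrate response element or a sterol response element core, of which each holds a different one. The motifs were settled after these sequences had been read, so finding a match in each gene is no test. They are the 250 bases before a transcript start in RefSeq (build GRCm38.p6, plus strand), and capitals mark a match to one of these 3 motifs. RefSeq lists 2 starts for Aldoc and 2 for Pklr; the upstream one is shown for Aldoc and the downstream one for Pklr, because the other start of each gene had no match marked in capitals.
Aldoc (chr11:78322823-78323072): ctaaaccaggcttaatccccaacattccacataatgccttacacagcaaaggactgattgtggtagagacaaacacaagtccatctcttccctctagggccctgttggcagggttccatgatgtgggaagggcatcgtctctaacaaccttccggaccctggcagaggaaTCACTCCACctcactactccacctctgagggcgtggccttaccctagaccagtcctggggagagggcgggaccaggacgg
Pklr (chr3:89136373-89136622): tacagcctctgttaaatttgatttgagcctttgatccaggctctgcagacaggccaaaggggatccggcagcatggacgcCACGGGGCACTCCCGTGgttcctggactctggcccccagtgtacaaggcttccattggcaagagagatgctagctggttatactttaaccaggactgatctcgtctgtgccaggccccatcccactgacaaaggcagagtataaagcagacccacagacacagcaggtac
Khk (chr5:30921309-30921558): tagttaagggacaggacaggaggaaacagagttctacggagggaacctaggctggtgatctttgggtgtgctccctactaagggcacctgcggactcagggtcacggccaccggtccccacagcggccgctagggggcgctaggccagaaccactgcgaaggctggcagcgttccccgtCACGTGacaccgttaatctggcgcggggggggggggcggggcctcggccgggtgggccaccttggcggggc
Aldoc held TCACTCCAC from base -80 to -72 before the start, a match to TCACNCCAC, the core of a sterol response element. That motif was found before 1.05% of 32851 transcript starts. Pklr held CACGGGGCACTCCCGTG from -170 to -154, a match to the letters CACGNG and CNCGTG 5 bases apart, the paired sites of a carbohydrate response element, which 0.0396% of starts held. Its downstream start also had TATAAA at -31. Khk held the E-box CACGTG at -71, which 6.02% of starts held. Each of these 3 motifs stood before 1 of the 15 starts of the 8 genes. None of the 15 starts of the 8 genes held GTTAAT and ATTAAC 1 base apart, an HNF1 palindrome, or AGGTCA repeated 1 base apart, a direct repeat bound by HNF4, within these 250 bases. These exact strings stood before only 0.00913% and 0.0335% of all starts, so their absence from 15 starts says little. Looser matches to HNF1 or HNF4 sites were not searched. CCAAT was found before 7 of the 15 starts and before 33.8% of all starts, GGGCGG before 5 of 15 and 32.7%, and TATAAA before 2 of 15 and 12.4%. The 15 starts are not independent: the stretches before starts 2 and 3 of Aldoa overlap, so sites there were counted for both. Pfkfb1, not analysed on the arrays, gives 4 of the starts. All motifs were searched on both strands, an E-box can overlap a carbohydrate response element, and a match is a description of letters. The array measured no binding, and 1 probe set per gene does not separate transcripts from different starts.

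Array values are log2 signals, so a difference of 1 is a 2-fold change. Array medians lay between 7.06 and 7.11, and across genes Pearson's r was 0.996 to 0.997 between arrays of 1 diet and 0.991 to 0.994 between diets. Detection calls and batches were not used here. The number of arrays limits the precision, and a level of 1 probe set does not compare with that of another. Within-array differences between 2 genes are therefore read only for how they differ between the diets.

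Of the 7 measured genes 3 fell, 0 rose and 4 did not pass the test (limma, Benjamini-Hochberg adjusted p under 0.05 over all 19938 genes). Over all genes 5.35% passed, 2.24% as lower and 3.11% as higher in HFD. All 7 genes were brighter than the median gene. When the 9969 brighter genes were tested alone, 619 passed as lower and 862 as higher, a larger share, and 4 of the 7 fell. The members were chosen with earlier results of these data known, so these shares are no test of the set. The median log2 difference, HFD minus RD, was -0.23 over the 7 genes and -0.0029 over all genes. In 6 of the 7 the HFD arrays did not overlap the RD arrays, 4 of them lower and 2 higher, against 25.7% of all genes. At an unadjusted p under 0.05, 5 of the 7 passed, with Slc2a2 and Aldoa added to the 3, against 19.7% of all genes. Errors given with ± are standard errors of the log2 difference from limma, except where SD is written.

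**Figure D1:**
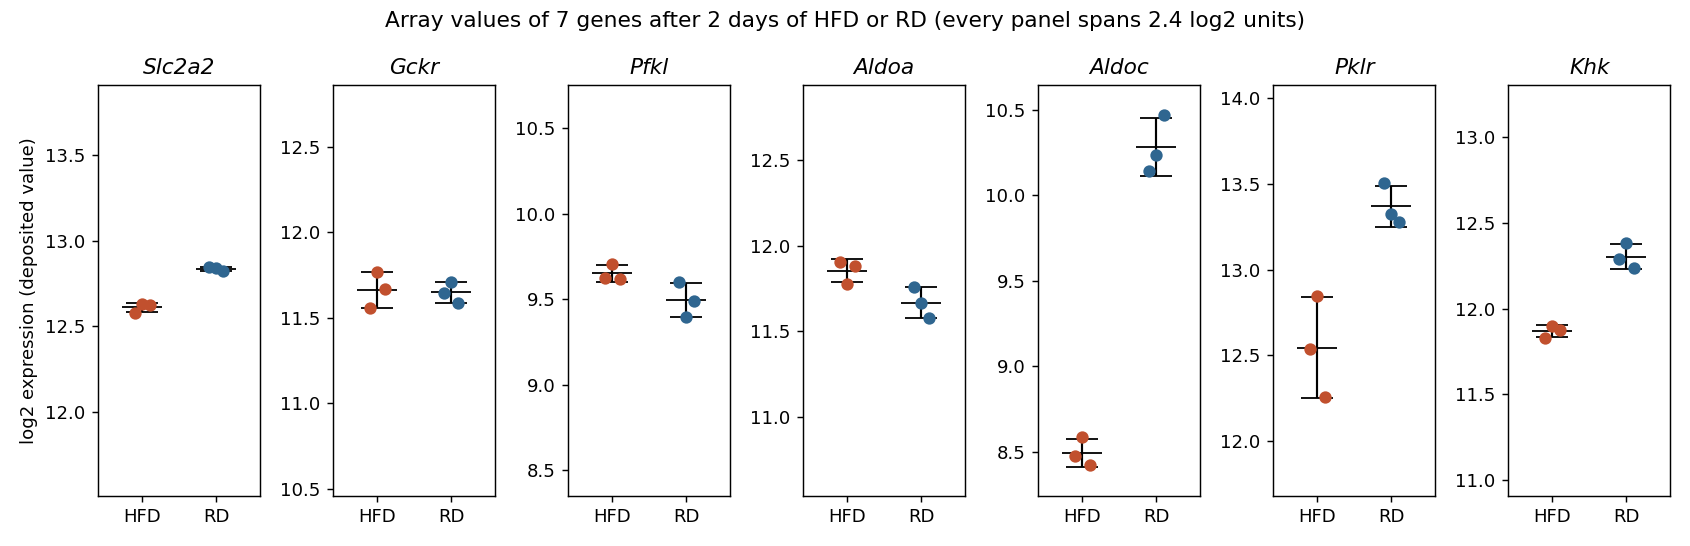
Each point is the deposited log2 expression value of 1 array for the gene named above the panel, with 3 HFD arrays on the left and 3 RD arrays on the right of each panel; long bars are means and whiskers the SD. Aldoc shows the widest gap, with HFD arrays from 8.42 to 8.59 and RD arrays from 10.14 to 10.47, while Gckr overlaps.

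Slc2a2 encodes GLUT2, the main glucose carrier of the hepatocyte membrane. It had log2 values of 12.58, 12.63 and 12.63 in the HFD arrays and 12.84, 12.84 and 12.82 in the RD arrays. All 3 HFD values lay below all 3 RD values. The log2 difference was -0.23 ± 0.06 (SE) and did not pass the test (limma adjusted p = 0.074, unadjusted p = 0.0052), with a 95% interval from -0.36 to -0.09. Its arrays were tight within each diet: the SD pooled over the diets was 0.022, and only 0.682% of genes had a smaller one. Slc2a2 passed with an intensity trend and robust prior (adjusted p = 0.0094) and among the brighter genes alone, where 9969 genes were tested (adjusted p = 0.026). Quantile normalization brought its difference down to -0.16 (adjusted p = 0.173).

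Gckr encodes a regulatory protein of the hepatocyte nucleus that restrains the phosphorylation of glucose. Its log2 values were 11.56, 11.76 and 11.67 in HFD and 11.65, 11.71 and 11.59 in RD. The highest and the lowest array were both HFD, and the diets overlapped. Its log2 difference was 0.02 ± 0.08 (limma adjusted p = 0.944), with a 95% interval from -0.16 to 0.19. It changed sign under centring on array medians (-0.0062), without HFD replicate 2 (-0.036) and without RD replicate 3 (-0.014).

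Pfkl encodes the liver subunit of phosphofructokinase, the controlled step of glycolysis. It had 9.63, 9.71 and 9.62 in HFD and 9.60, 9.40 and 9.49 in RD. The HFD values were the higher ones, but the gap between the nearest arrays of the diets was only 0.020. The log2 difference of 0.16 ± 0.07 did not pass the test (limma adjusted p = 0.301), and its 95% interval ran from -0.02 to 0.33.

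Aldolases split fructose 1,6-bisphosphate into triose phosphates. Aldoc, the brain-type isoform, gave 8.47, 8.59 and 8.42 in HFD and 10.14, 10.24 and 10.47 in RD. The nearest arrays of the diets were 1.55 apart, a larger distance than the range within either diet, which was 0.16 in HFD and 0.33 in RD. Aldoc fell by 1.79 ± 0.10 on the log2 scale (limma adjusted p = 1.1e-04; 95% interval from -2.01 to -1.57), which left 29.0% of the RD signal. Only 0.0552% of genes had a lower difference.

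Aldoa, the muscle-type aldolase found in most tissues, had 11.90, 11.78 and 11.88 in HFD and 11.76, 11.67 and 11.58 in RD. The diets did not overlap, by a margin of 0.017. The log2 difference was 0.19 ± 0.07 and did not pass the test (limma adjusted p = 0.213, unadjusted p = 0.036). Within each array the log2 difference Aldoc minus Aldoa averaged -3.36 ± 0.15 in HFD and -1.39 ± 0.26 in RD (SD, n = 3 each), lower in all 3 HFD arrays than in any RD array. The difference between the diets was -1.97 (exact two-sided permutation p = 0.10, the smallest that 3 against 3 arrays allow; 0.15 adjusted over 3 pairs of genes).

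Pklr encodes the pyruvate kinase of liver and red cells, the last step of glycolysis. It gave 12.53, 12.84 and 12.25 in HFD and 13.50, 13.33 and 13.28 in RD. All HFD arrays were lower, but they spread widely: the HFD SD of 0.30 compared with 0.12 in RD, and 94.5% of genes had a smaller pooled SD. Pklr fell by 0.83 ± 0.14 on the log2 scale, to 56.4% of the RD signal (limma adjusted p = 0.016; 95% interval from -1.15 to -0.50). The call was lost without RD replicate 1 (adjusted p = 0.068) or RD replicate 2 (adjusted p = 0.060). Against Pkm, the pyruvate kinase of muscle and most other cells, the within-array log2 difference Pklr minus Pkm was 2.88 ± 0.44 in HFD and 3.99 ± 0.11 in RD (SD, n = 3 each). This is a difference of -1.11 with no overlap (exact two-sided permutation p = 0.10, the smallest possible; 0.15 adjusted over 3 pairs).

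Red cell precursors are another source of Pklr. Of 3 measured erythroid markers (Alas2, Slc4a1 and Epb42) 0 passed in limma and 0 had an unadjusted p under 0.05, with 3 of 3 differences negative. Their summed linear signal ran from 2253 to 2547 in HFD and from 2323 to 2964 in RD, so the diets overlapped. Most of this sum is Alas2, with a mean log2 value of 11.18, against 7.19 for Slc4a1 and 5.53 for Epb42.

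Khk encodes fructokinase, the entry step of fructose use. It had 11.83, 11.90 and 11.87 in HFD and 12.29, 12.39 and 12.24 in RD. The HFD arrays lay within a range of 0.069, and the nearest RD array was 0.34 higher. Khk fell by 0.44 ± 0.07 on the log2 scale, to 73.9% of the RD signal (limma adjusted p = 0.011; 95% interval from -0.59 to -0.28). Aldoc, Pklr and Khk thus came in that order by size, and the 95% intervals of Pklr and Khk overlapped.

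**Figure D2:**
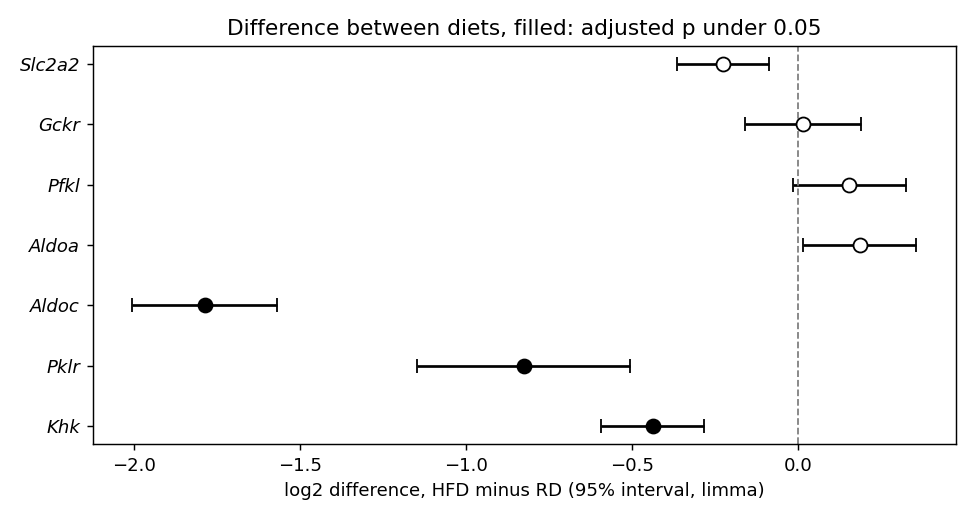
Log2 difference between diets, HFD minus RD, for each measured gene in pathway order, with 95% intervals from limma that are not adjusted for the number of genes. Filled points (Aldoc, Pklr, Khk) passed the adjusted test; the intervals of Gckr and Pfkl cross 0.

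The phosphofructokinase pair overlapped between the diets. Pfkl minus Pfkm, the liver against the muscle subunit, was 0.16 ± 0.06 in HFD and 0.11 ± 0.20 in RD (SD, n = 3 each), a difference of 0.06 with overlapping arrays (exact two-sided permutation p = 0.70; 0.70 adjusted over 3 pairs). It was -0.02 without RD replicate 3.

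When any 1 array was left out, Aldoc stayed between -1.86 and -1.69 (limma adjusted p up to 0.0015) and Khk between -0.47 and -0.40 (adjusted p up to 0.045). Pklr ranged from -0.98 without HFD replicate 2 to -0.68 without HFD replicate 3. The count of genes that fell was 2 without RD replicate 1 or 2 and 3 without each other array. It was 4 with the intensity trend or among the brighter genes, where Slc2a2 joined.

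**Figure D3:**
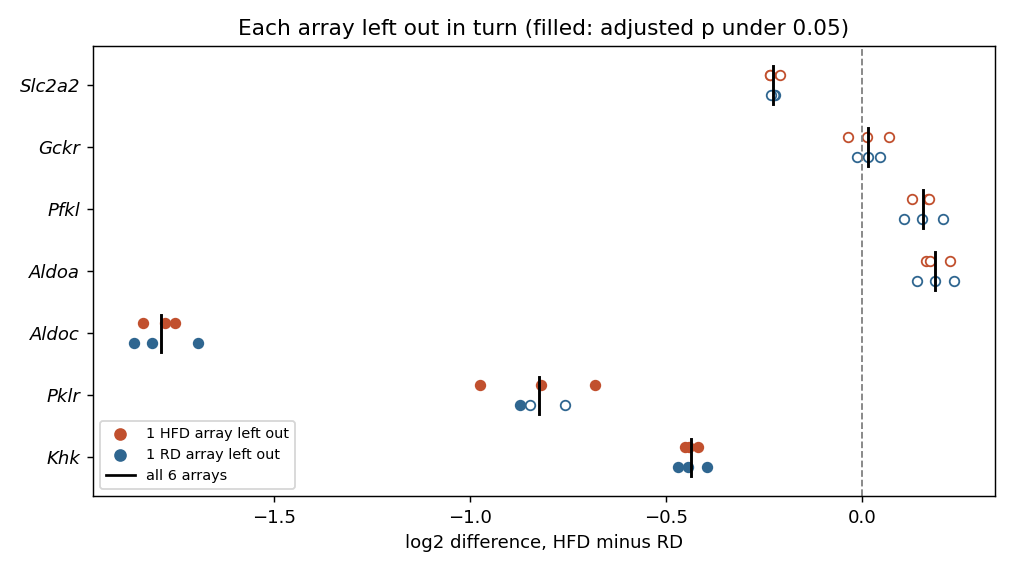
Log2 difference, HFD minus RD, for each gene with all 6 arrays (black bar) and with each array left out in turn (points, coloured by the diet of the array left out, filled where the adjusted p stayed under 0.05). Aldoc and Khk stay filled throughout, and 2 of the 3 Pklr points without an RD array are open.

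The genes closest in profile to each gene that fell were found by the root mean square distance between log2 values over the 6 arrays, each gene centred on its own mean. Both the diet difference and the order of the arrays within a diet enter this distance. Closest to Aldoc were Slc17a8, a vesicular glutamate transporter (distance 0.149; log2 difference -1.73), Fdps, the farnesyl diphosphate synthase of the mevalonate pathway (0.171; -1.71), and Chrna4, a nicotinic acetylcholine receptor subunit (0.198; -1.58). Fdps had 10.03, 10.32 and 9.90 in HFD and 11.90, 11.76 and 11.72 in RD. Each of the 3 neighbours, like Aldoc, had no overlap between the diets, which follows from choosing them by closeness to Aldoc. Within a diet their array orders differed from that of Aldoc: HFD replicate 2 was the highest HFD array for Aldoc and Fdps and the lowest for Slc17a8 and Chrna4, and RD replicate 3 was the highest RD array for Aldoc and the lowest for Fdps.

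Closest to Pklr were Hao1, a peroxisomal hydroxyacid oxidase (distance 0.072; log2 difference -0.75), Cebpa, a transcription factor of hepatocyte metabolism (0.087; -0.83), and Cyp2d13 of the cytochrome P450 family (0.107; -0.71). In all 3 of these genes, as in Pklr, HFD replicate 2 was the highest and HFD replicate 3 the lowest HFD array, an order that entered the distance by which they were chosen. Closest to Khk were Tmem9, a lysosomal membrane protein (0.022; -0.40), Ank, a pyrophosphate transporter (0.033; -0.43), and Col18a1, a basement membrane collagen (0.034; -0.48).

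**Figure D4:**
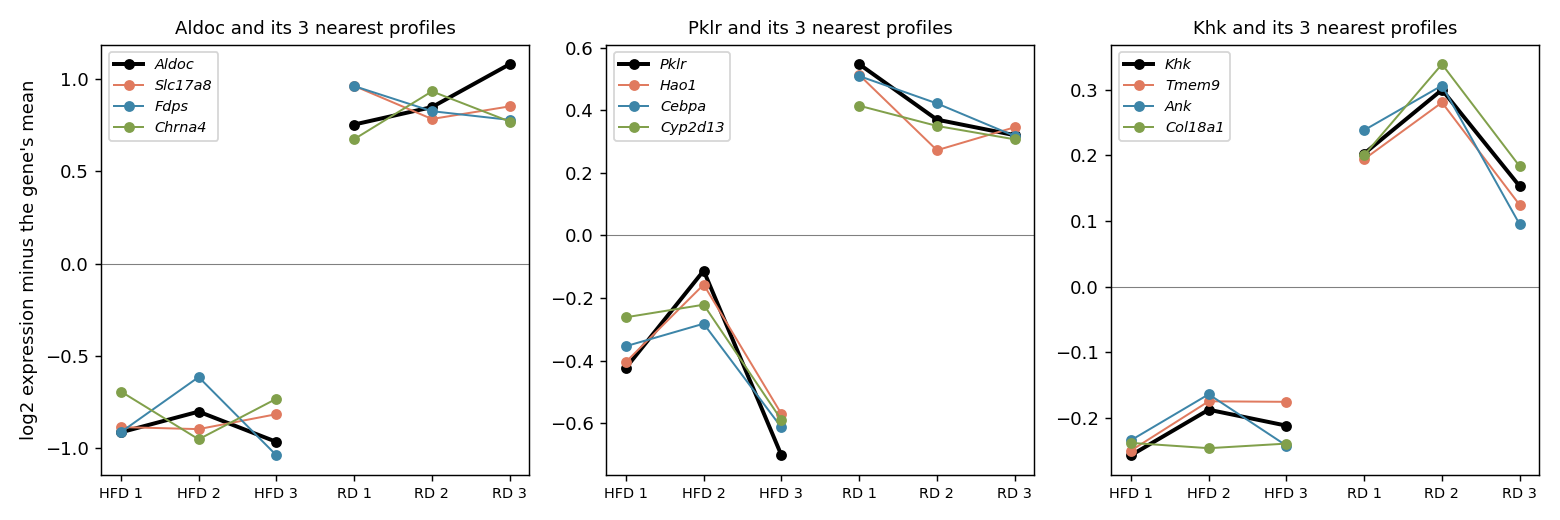
Log2 expression minus each gene's own mean, for Aldoc, Pklr and Khk (black) and the 3 genes nearest to each, over 3 HFD and 3 RD arrays; lines join arrays of 1 diet only to guide the eye. The distances are 0.149 to 0.198 for Aldoc, 0.072 to 0.107 for Pklr and 0.022 to 0.034 for Khk.

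The other genes of carbohydrate metabolism moved in both directions. Of 96 genes in 7 lists around these steps 84 were measured, of which 11 fell and 4 rose, with a median log2 difference of -0.03. The shares over all genes were 2.24% lower and 3.11% higher, and the count of each list is to be read beside them. A count of 1 gene in a list is too small to differ clearly from these shares. The other 12 were not analysed here. Among the other glycolytic enzymes 1 of 15 fell and 1 rose, with a median of 0.04. The phosphoglycerate kinase Pgk1 was the one that fell, at -0.34 ± 0.07 (limma adjusted p = 0.033), and the platelet-type phosphofructokinase Pfkp the one that rose, at 0.37 ± 0.09 (adjusted p = 0.048). The hexokinase-like gene Hkdc1 had 0.24 ± 0.07 and did not pass (adjusted p = 0.090).

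Of 14 genes that control phosphofructokinase and pyruvate use 2 fell and 1 rose, with a median of -0.03, and all 3 are pyruvate dehydrogenase kinases, which switch off the entry of pyruvate into the mitochondrial cycle. Pdk4, the isoform induced by fasting, rose by 1.01 ± 0.19 (limma adjusted p = 0.021), while Pdk1 fell by 0.65 ± 0.06 (adjusted p = 0.0013) and Pdk2 by 0.36 ± 0.06 (adjusted p = 0.018). Pdk4 had 9.89, 9.76 and 10.57 in HFD and 9.01, 9.02 and 9.15 in RD, with HFD replicate 3 the highest.

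In the fructose, polyol, triose and mannose list 1 of 7 genes besides Khk passed the test, with a median of -0.12. Aldh1b1, a mitochondrial aldehyde dehydrogenase, fell by 0.97 ± 0.10 (limma adjusted p = 0.0016). Tkfc, the triose kinase that follows aldolase in fructose use, had -0.28 ± 0.09 and did not pass (adjusted p = 0.138), nor did Adh5 at -0.33 ± 0.13 (adjusted p = 0.211). Among 12 other hexose carriers 1 passed the test, with a median of 0.04. It was the fructose carrier Slc2a5, with 8.23, 8.48 and 8.29 in HFD and 8.75, 8.86 and 9.15 in RD, a fall of 0.58 ± 0.11 (adjusted p = 0.027). Slc2a6 had 0.39 ± 0.09 (adjusted p = 0.051) and Slc5a1, the intestinal-type glucose carrier, 0.31 ± 0.11 (adjusted p = 0.181).

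Among 14 carbohydrate-sensing and hepatocyte factors 2 fell and 1 rose, with a median of 0.01. Cebpa fell by 0.83 ± 0.10 (limma adjusted p = 0.0033) and Srebf2, which drives cholesterol synthesis, by 0.52 ± 0.11 (adjusted p = 0.034), while Srebf1, the gene of SREBP1c, rose by 0.97 ± 0.22 (adjusted p = 0.040). RD replicate 3 was low for Srebf1, at 9.79 against 10.70 and 10.67 in the other RD arrays. Mlxipl, the gene of ChREBP, had 0.23 ± 0.09 with overlapping arrays and did not pass (limma adjusted p = 0.224, unadjusted p = 0.040). Of 14 glycogen genes 1 fell and 1 rose, with a median of 0.0013. They were the liver glycogen synthase Gys2, at -0.40 ± 0.07 (adjusted p = 0.018), and the phosphoglucomutase Pgm2, at 0.45 ± 0.09 (adjusted p = 0.032), while the lysosomal glucosidase Gaa had 0.29 ± 0.07 (adjusted p = 0.055).

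Gluconeogenesis and glycerol entry had the lowest median of the 7 lists, at -0.23, with 8 of 9 differences negative and 3 of 9 genes past the test, all lower. The aspartate transaminase Got1 fell by 0.996 ± 0.095 (limma adjusted p = 0.0012), the glucose phosphatase G6pc by 0.65 ± 0.09 (adjusted p = 0.0056) and the fructose bisphosphatase Fbp1 by 0.29 ± 0.06 (adjusted p = 0.030). Fbp1 had 13.84, 13.85 and 13.86 in HFD and 14.13, 14.14 and 14.15 in RD. Enzymes of both directions between glucose and pyruvate were thus among the genes that fell.

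Of these 15 list calls, those of Pdk1, Aldh1b1, Cebpa, Got1 and G6pc were kept whichever array was left out. The others were lost without some array: Fbp1 without any of the 6, Pgk1 without each but HFD replicate 1, Pfkp without each but HFD replicate 3, Srebf2 and Srebf1 without each but RD replicate 3, Pdk4 without each single RD array, Pdk2 without HFD or RD replicate 1 or 2, Slc2a5 without HFD replicate 1 or 3 or RD replicate 2 or 3, Pgm2 without HFD replicate 1 or 2 or RD replicate 1 or 3, and Gys2 without HFD replicate 2 or 3 or RD replicate 1. The largest adjusted p was 0.151, for Pfkp without RD replicate 1. The count of list genes that fell was 6 without HFD replicate 2 or 3 or RD replicate 1 or 2, 7 without HFD replicate 1 and 9 without RD replicate 3. The count that rose was 3 without HFD replicate 3, and 1 in each of the other 5 fits. These counts can hold genes not called with all 6 arrays, so they are not counts of calls kept. Without RD replicate 1 the gene that rose was Slc2a6, at 0.48 (limma adjusted p = 0.038), and the 4 calls of risen genes were lost.

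**Figure D5:**
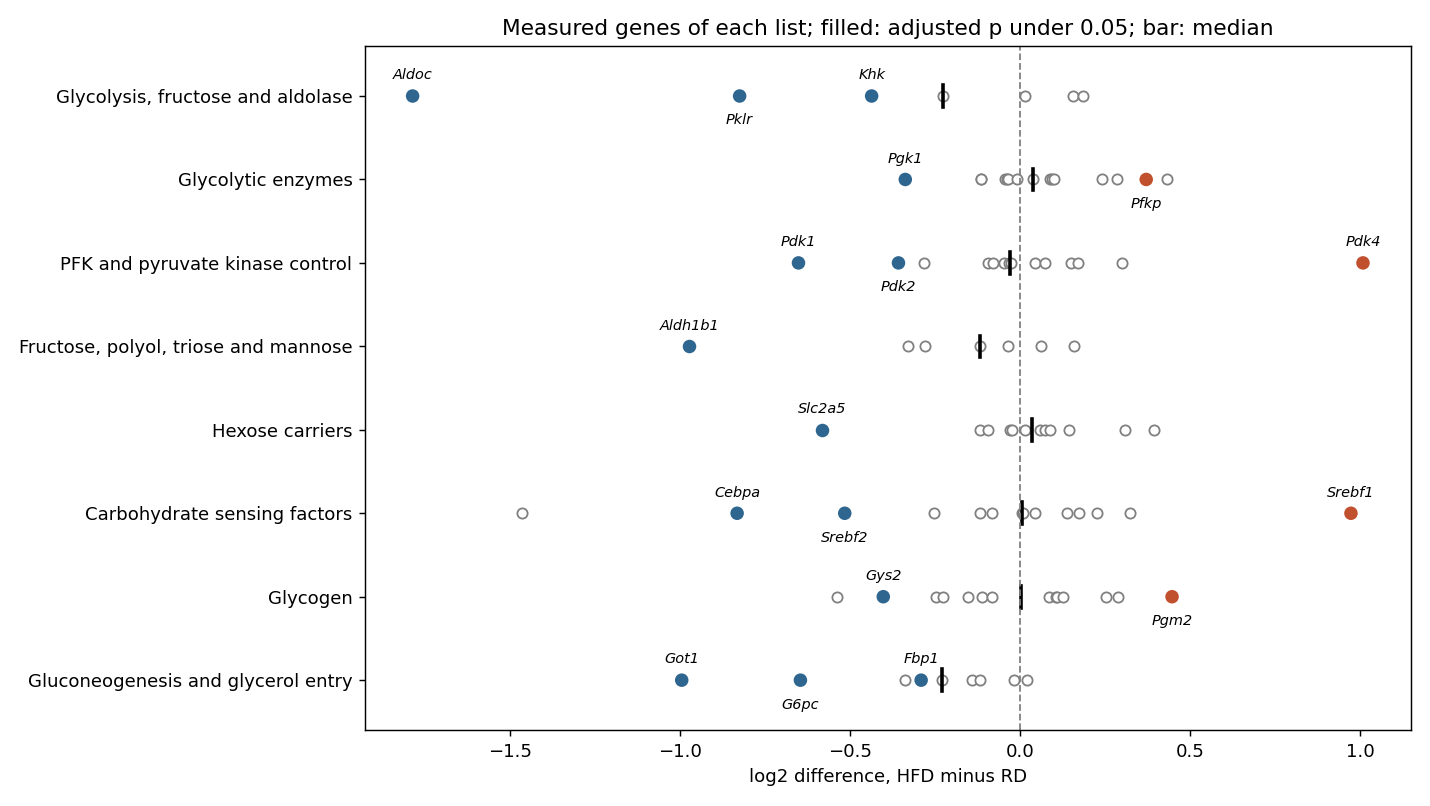
Log2 difference, HFD minus RD, of every measured gene in the set described here (top row) and in 7 lists of carbohydrate genes; filled and named points passed the adjusted test, blue for lower and red for higher, and black bars are medians. The top row and the gluconeogenesis list have medians of -0.23, and the other lists lie between -0.12 and 0.04.

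Some marker genes of other liver cells differed between the diets, where 3.11% of all genes rose and 2.24% fell. Of 7 Kupffer cell markers 4 rose, with a summed linear signal from 10622 to 14416 in HFD and from 8886 to 9445 in RD, and of 4 bile duct markers 4 rose, with sums from 1142 to 1300 in HFD and from 841 to 931 in RD. Without HFD replicate 3 or RD replicate 3 the Kupffer count was 2 and without RD replicate 1 or 2 it was 1, while the bile duct count was 0 without HFD or RD replicate 1 and 1 without each of the rest. Of 5 hepatocyte markers 0 passed in limma, and 0 had an unadjusted p under 0.05, with sums from 91503 to 93812 in HFD and from 93112 to 94304 in RD. Of 5 sinusoidal endothelial, 5 stellate, 4 neutrophil, 3 lymphocyte, 4 skeletal muscle, 3 pancreatic and 3 adipocyte markers 0 passed in limma, with 1 at an unadjusted p under 0.05, the pancreatic marker Prss2, named after its values were seen. No marker is at 0 on this scale, and detection was not assessed. The part of Kupffer and bile duct cells in the values of Aldoa, Pkm and Pfkp, which are made in many cell types, was not tested.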

How the data were processed

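Per the labels, RNA from the livers was prepared for GeneChip arrays by terminal labelling. The deposited table holds log2 expression per probe set (35512) and array; base 2 was inferred from values of 2.28 to 14.86. Summarisation and normalization were not given in the sources used here; values were taken as they stood. Gene names came from the annotation table of the platform, which can be old: 21789 carried 1 symbol, 1621 several and 12102 were not listed. Of those with 1 symbol, 21698 matched RefSeq gene identifiers and 0 symbols changed. The brightest probe set per gene left 19938 genes.

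Diet alone was fitted in limma 3.58.1 (R 4.3.3; lmFit and eBayes, two-sided, Benjamini-Hochberg), and tested on simulated data. Pairs of genes were compared by exact permutation in SciPy 1.17.1; 2 of 5 planned pairs are not reported here. The text names all members, list genes past the threshold or else the 3 of smallest p, all marker lists, and the 3 nearest profiles of each called gene. Mlxipl was added after its values were seen, because the text introduces ChREBP. The members, lists, motifs and rules were chosen with earlier results of these data known. Motifs were settled after the promoters had been read. Alternatives were quantile normalization, median centring, brighter genes, the mean of a gene's probe sets, a variance trend, a replicate block and each array left out. Same-numbered arrays deviated with correlations of -0.107, 7.2e-05 and 0.117, so the numbers were not treated as pairs. All per-sample columns were used.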

Additional observations from a re-analysis of the deposited data

How the results depend on the processing

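The fall of Aldoc and Khk kept its direction and stayed past the threshold in all 12 alternatives, and Pklr did so in 10. The count of the 7 genes that fell was 2 to 3 when 1 array was left out and 3 to 4 otherwise, and 0 rose in every alternative. With the replicate number as a block the same count was 3, but list genes numbered 7 lower and 1 higher instead of 11 and 4, and over all genes 245 lower and 318 higher instead of 446 and 621; the cause was not tested. Without 1 array, list genes numbered 6 to 9 lower and 1 to 3 higher, and over all genes 178 to 273 lower and 197 to 371 higher. Gckr reversed to -0.0062 with median centring, and without 1 array it ranged from -0.036 to 0.069, negative without HFD replicate 2 or RD replicate 3 (-0.014); Pfkl minus Pfkm reversed to -0.018 without RD replicate 3, within a range of -0.018 to 0.17; the cause was not tested. Aldoc minus Aldoa stayed between -2.09 and -1.83 and Pklr minus Pkm between -1.36 and -0.95. Quantile normalization lost the calls of Pgk1 (adjusted p = 0.053, limma) and Pfkp (0.065). Median centring lost Pfkp (0.062), and the intensity trend lost Srebf1 (0.089). Centring on medians moved the median of all genes by -0.02. Signal over background limits values of dim probe sets, since no detection calls were used.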
